A study of Rattus norvegicus with 2 samples.

Results

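Cardiac excitation-contraction coupling depends on a small set of proteins that move calcium across the plasma membrane and the sarcoplasmic reticulum, the calcium store of heart muscle. Calcium entering through the L-type channel opens the ryanodine receptor, the store empties into the cytosol, and the calcium is then pumped back by the ATPase SERCA2a or carried out by the sodium-calcium exchanger. Phospholamban and sarcolipin restrain the pump, calsequestrin binds calcium inside the store, triadin ties calsequestrin to the release channel, and junctophilin-2 holds the store membrane beside the T-tubule. Calcium release and uptake by this store set the strength and the relaxation of each heartbeat. The 10 genes described here are Atp2a2, Pln, Sln, Ryr2, Casq2, Trdn, Jph2, Cacna1c, Slc8a1 and Hrc. They were chosen by symbol, and they are 10 of the 22093 genes that had at least 1 transcript cluster with a single gene symbol on the array.

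The cells were primary cardiomyocytes of neonatal SD rats, cultured for several days. One culture condition received vehicle and the other lipopolysaccharide (LPS, a bacterial outer membrane component) at 100 ng/mL. RNA was extracted from both after 24 h. The series title places this comparison in the study of septic cardiomyopathy. Each of the 2 groups is represented by 1 array, without replicates and with no statement of whether cultures were pooled, so no test was run, and every difference below describes these 2 arrays only. Values are linear intensities in arbitrary units, differences are LPS minus vehicle on the log2 scale, and levels of different genes are not ranked, because each gene has its own probes. For Atp2a2, Pln and Casq2 the values exceed 65535, the 16-bit limit of a scanner, so they are not raw brightness, and whether their probes were saturated was not tested.

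A gene was kept when the higher of its values reached 49.3, the median intensity of all clusters, called the floor below. All 10 calcium handling genes and 14420 genes in total did so. The 2 arrays gave exactly the same value for 45.9% of the 14420 genes, and the median difference over them was 0. Of 18 cardiomyocyte markers, 18 were above the floor and 16 reached 236, the 75th percentile of cluster means, on at least 1 array. The dim ones, named after their values were seen, were Pgam2 at 54.0 on both arrays and Myl7 at 169.5 and 122. Markers of other cells were also measured, and 236 was reached by 9 of 10 fibroblast, 8 of 8 smooth muscle and pericyte, 3 of 8 endothelial and 8 of 10 macrophage markers. The endothelial markers Vwf and Emcn stood at the floor itself and the macrophage marker Cd163 below it.

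The core calcium handling genes did not move together. With LPS, 3 of 10 were higher, 6 lower and 1 identical, and their median difference was -0.03, beside 0 for all genes, while their mean was 0.02, of the opposite sign. Trdn and Atp2a2 were at least 1.2-fold higher, 2 of 10, where 10.5% of all genes above the floor were higher by that size. Jph2 and Slc8a1 were at least 1.2-fold lower, also 2 of 10, where 12.9% of all genes were. Each count rests on 2 genes and is not read as a result about the set. At 1.5-fold, Trdn remained as 1 gene higher, beside 6.05% of all genes, and 0 were lower, beside 5.67%. None of the 10 differed 2-fold, a size reached by 3.69% of all genes upward and 2.63% downward.

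**Figure D1:**
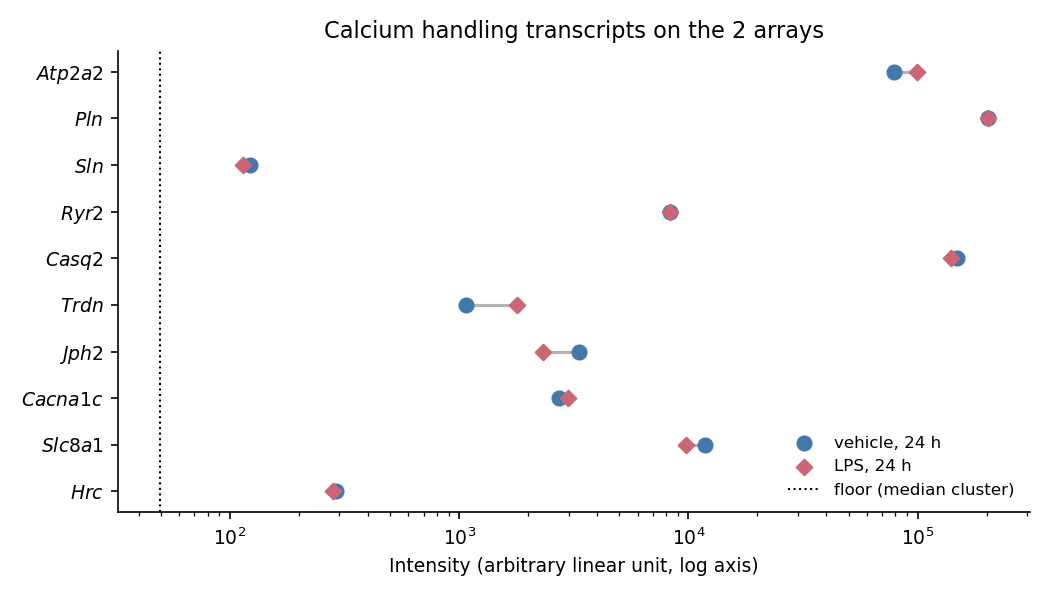
Intensity of each calcium handling gene on the vehicle array (circles) and the LPS array (diamonds), with a log axis in arbitrary units and the floor of 49.3 dotted. Trdn and Atp2a2 lie to the right with LPS, Jph2 and Slc8a1 to the left, and the other pairs of symbols nearly coincide.

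The RefSeq promoter table held 9 of the 10 genes, all but Sln. The 250 bases before the annotated start are shown for the 4 genes past 1.2-fold, because these are the genes on which the comparison turns. Sequences are from RefSeq, build GRCr8, written 5′ to 3′ on the strand of the gene. The starts of Trdn, Jph2 and Slc8a1 lie inside the full gene span, 470, 757 and 48061 bases in, so other starts of these genes are not shown. Capitals mark the motifs found on either strand among 7 searched: the E-box CANNTG, the GC box GGGCGG, the GATA motif AGATAA, the nuclear receptor half-site AGGTCA, the CArG box, the MEF2 box and the NF-κB site.
Atp2a2, chr12:39733269-39733518, plus strand: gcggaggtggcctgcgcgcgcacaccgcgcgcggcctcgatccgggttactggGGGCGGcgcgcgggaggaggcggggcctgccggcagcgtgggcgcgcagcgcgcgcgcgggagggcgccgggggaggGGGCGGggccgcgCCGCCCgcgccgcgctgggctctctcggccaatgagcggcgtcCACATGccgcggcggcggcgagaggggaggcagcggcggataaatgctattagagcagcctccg
Trdn, chr1:26229600-26229849, minus strand: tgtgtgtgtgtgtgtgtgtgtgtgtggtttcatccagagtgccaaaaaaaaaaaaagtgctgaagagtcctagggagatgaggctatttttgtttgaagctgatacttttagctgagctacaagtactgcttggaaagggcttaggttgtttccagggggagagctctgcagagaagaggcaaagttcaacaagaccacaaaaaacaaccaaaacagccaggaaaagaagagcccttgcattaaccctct
Jph2, chr3:172477922-172478171, minus strand: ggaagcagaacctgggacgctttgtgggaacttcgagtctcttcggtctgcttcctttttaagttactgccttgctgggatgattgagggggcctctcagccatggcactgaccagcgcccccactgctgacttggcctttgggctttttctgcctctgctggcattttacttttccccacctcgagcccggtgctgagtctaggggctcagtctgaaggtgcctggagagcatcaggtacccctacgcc
Slc8a1, chr6:19023309-19023558, plus strand: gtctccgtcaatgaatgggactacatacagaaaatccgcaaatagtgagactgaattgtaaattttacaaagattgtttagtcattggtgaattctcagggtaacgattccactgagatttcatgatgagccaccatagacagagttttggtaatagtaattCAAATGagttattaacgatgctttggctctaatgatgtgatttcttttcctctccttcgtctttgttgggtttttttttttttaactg
The Atp2a2 window had a GC content of 80.0% and held 3 GC boxes and 1 E-box. The Slc8a1 window had a GC content of 35.2% and held 1 E-box. The Trdn and Jph2 windows, at 44.0% and 57.2%, held none of the 7. The median over all 33469 promoters was 51.2%.

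These motifs are short runs of letters, and whether any of them is a site in use was not tested. Of all 33469 windows of the same length, 65.5% held the E-box and 30.5% the GC box, against 6 and 2 of the 9 calcium handling windows. AGGTCA was in 14.1% of all windows and in 1 of the 9, that of Ryr2, where 2 of the 3 GC boxes overlapped. The MEF2 box was in 2.96% and in 1 of the 9, that of Casq2. The CArG box, in 1.497% of all windows, the NF-κB site, in 6.33%, and AGATAA, in 10.3%, were in 0 of the 9. The annotated starts of Pln and Cacna1c also lie inside the gene span, 5982 and 184 bases in, so other starts were not searched.

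Trdn (Entrez 59299), which encodes triadin, had the largest difference of the 10 in either direction. Its intensity was 1071 with vehicle and 1794 with LPS, 1.68-fold higher, a log2 difference of 0.74. After removal of a smooth trend of the difference on level the value was 0.68. Triadin sits in the store membrane and binds both the release channel and calsequestrin, and its partners did not share this difference.

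Casq2 (Entrez 29209), the cardiac calsequestrin, read 148801 on the vehicle array and 140288 on the LPS array, 1.06-fold lower, a log2 difference of -0.08. The ratio of Trdn to Casq2 was therefore 1.78-fold higher on the LPS array. Ryr2 (Entrez 689560), the release channel itself, had the same value on both arrays, 8289.9. Such an identity is a feature of these files and was shared by 17.7% of the genes in the same level bin, the highest of 10 bins of 1442 genes each. It does not show that Ryr2 transcript was equal in the cultures. Removal of the level trend gave Ryr2 a difference of -0.03.

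Jph2 (Entrez 296345), junctophilin-2, had the largest lower value of the 10. Its intensity was 3321 with vehicle and 2309 with LPS, 1.44-fold lower, a log2 difference of -0.52. With the level trend removed the value was -0.58. Trdn and Jph2, whose proteins both belong to the junction of store and T-tubule, thus lay at opposite ends of the set. The ratio of Trdn to Jph2 was 2.41-fold higher with LPS, which is the full span of the 10 from highest to lowest. Ratios between pairs of other genes were not computed, so how usual such a size is was not tested.

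Cacna1c (Entrez 24239), the pore subunit of the L-type calcium channel, read 2721 on the vehicle array and 2973 on the LPS array, 1.09-fold higher. Its log2 difference of 0.13 was 0.07 with the level trend removed. In the bin that holds Cacna1c and Jph2, the median absolute difference was 0.12, 25.8% of genes were identical, and 1.2-fold was passed upward by 15.1% and downward by 15.5%. Cacna1c lay near that median absolute difference and Jph2 well above it.

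On the uptake side, Atp2a2 (Entrez 29693), the gene of the SERCA2 pump, read 78453 on the vehicle array and 99720.3 on the LPS array. It was 1.27-fold higher, a log2 difference of 0.35, which was also 0.35 with the level trend removed. Pln (Entrez 64672), phospholamban, the inhibitor of the pump, read 203253 on the vehicle array and 202671 on the LPS array, 1.003-fold lower. Its log2 difference was -0.0041, and 0.0089 with the level trend removed, so it has no settled direction. The ratio of Atp2a2 to Pln was 1.27-fold higher on the LPS array. In the bin that holds these genes, 1.2-fold was passed upward by 15.1% of genes and downward by 20.5%, and the median absolute difference was 0.14.

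Sln (Entrez 367086), sarcolipin, which inhibits the pump in atrial and slow skeletal muscle, had a dim cluster. Its intensity was 122 with vehicle and 114 with LPS, 1.07-fold lower, a log2 difference of -0.10. Both values lay under 236, and with values under 236 raised to that level the difference was 0. Hrc (Entrez 292905), the histidine-rich calcium-binding protein of the store lumen, read 290.4 on the vehicle array and 281 on the LPS array, 1.03-fold lower, a log2 difference of -0.05. In the level bins of Sln and Hrc, 60.5% and 44.9% of genes were identical on both arrays.

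Slc8a1 (Entrez 29715), the sodium-calcium exchanger that removes calcium from the cell, read 11768 on the vehicle array and 9789 on the LPS array. It was 1.202-fold lower, a log2 difference of -0.27, just past the size counted. The ratio of Atp2a2 to Slc8a1, store pump over exchanger, was 1.53-fold higher on the LPS array, and 0.61 on the log2 scale. With the level trend removed this difference between the genes was 0.64. Both clusters fall in the highest level bin.

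**Figure D2:**
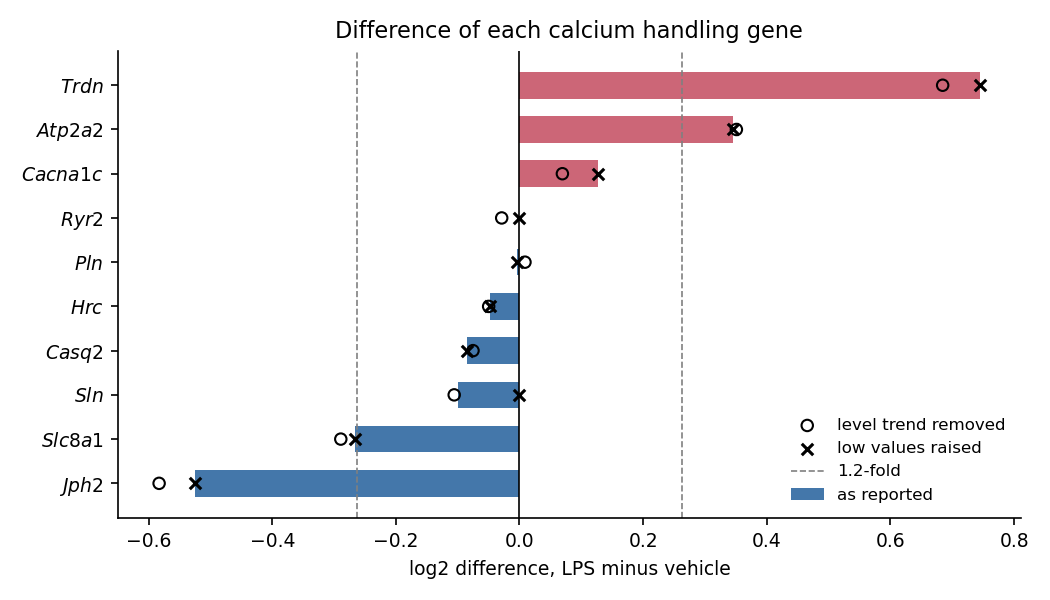
Log2 difference, LPS minus vehicle, of each calcium handling gene (bars: pink for higher, blue for lower), with the value after removal of the level trend (circles) and after raising low values (crosses). The dashed lines mark 1.2-fold, which Trdn and Atp2a2 pass upward and Jph2 and Slc8a1 downward under each of these settings.

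**Figure D3:**
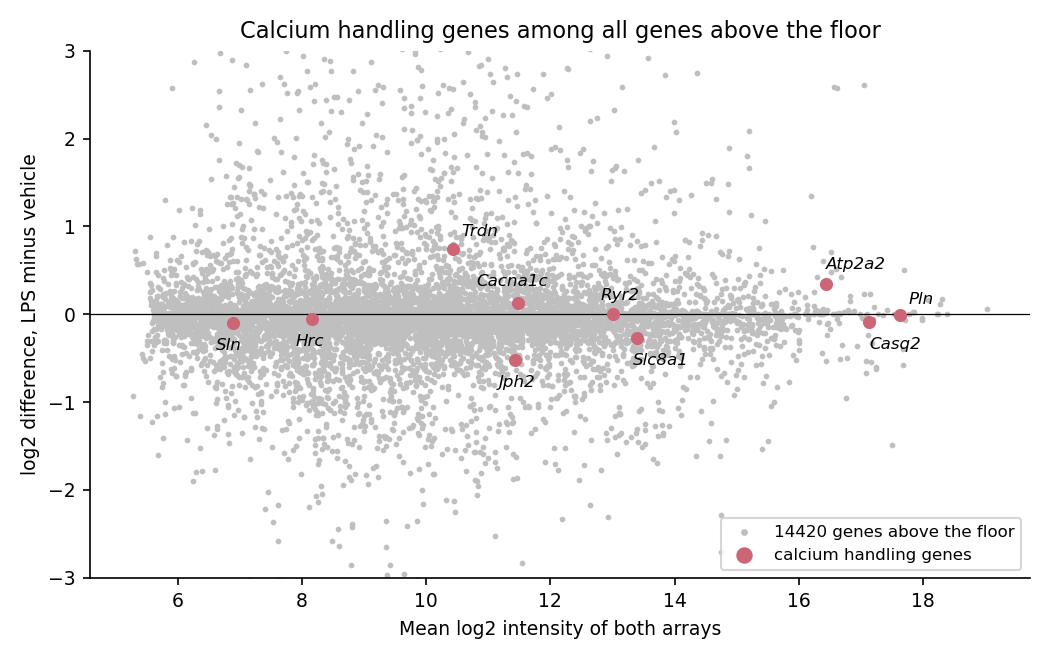
Mean log2 intensity of both arrays against the log2 difference, LPS minus vehicle, for the 14420 genes above the floor (grey) and the 10 calcium handling genes (pink). The vertical axis runs from -3 to 3, which leaves 133 genes outside it, and all 10 calcium handling genes lie between -0.52 and 0.74.

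Cardiomyocyte markers other than calcium handling genes were mostly lower. Their median was -0.39. Of 18 markers, 12 were lower, 2 higher and 4 identical, and 1.2-fold was passed downward by 11 and upward by 0, beside the 12.9% and 10.5% of all genes. Their summed intensity was 838132 with vehicle and 687224 with LPS, of which Actc1 alone held 256258 and 171972. Actc1, cardiac actin, was at -0.58, the Z-disc gene Ldb3 at -0.78, the M-band gene Myom1 at -0.78 and the light chain Myl4 at -1.51. The myosin heavy chain Myh7 was identical. The 2 higher markers, named after their values were seen, were Tnnt2 at 0.06 and Tnni3 at 0.13. Ttn and Myl2 were also among the identical ones. Of the calcium handling genes, Jph2 at -0.52 and Slc8a1 at -0.27 were lower like most of these markers, Trdn at 0.74 and Atp2a2 at 0.35 lay the other way, and Pln and Casq2 differed by less than 0.1 in size. In a culture measured in bulk, fewer cardiomyocytes and less RNA of these genes per cell cannot be told apart.

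Markers of other cells differed in both directions. Smooth muscle and pericyte markers were at a median of -0.78 with 7 of 8 lower. Their summed intensity was 418709 with vehicle and 152464 with LPS, of which Acta2 alone held 311396 and 110838. Acta2, smooth muscle actin, was at -1.49, Tagln at -2.29 and Smtn at -2.35, while Rgs5 was at 1.33. Fibroblast markers had a median of -0.16 but a mean of 0.45, with 4 of 10 higher and 5 lower. Dcn was at 3.68, Pdgfra at 3.40, Lum at 2.56 and Thy1 at -1.95. The summed intensity was 506675 with vehicle and 643038 with LPS, but 492835 and 465603 without Dcn. Macrophage markers had a median of -0.26 but a mean of 0.08, with 2 of 9 higher and 7 lower. Adgre1 was at 7.09 and C1qb at -2.02, or 5.22 and -0.59 with low values raised to 236, while Mrc1 was at -1.80, Csf1r at -1.76, Cd68 at -0.13 and Msr1 at 0.41. The summed intensities were 26907 with vehicle and 31868 with LPS, but 26842 and 23065 without Adgre1. Endothelial markers had a median of 0 with 1 of 8 higher, 3 lower and 4 identical, and -0.49 over the 3 that reached 236. Kdr was at 1.47, Eng at -0.57, Tek at -0.49 and Cdh5 at -0.19, and the summed intensities were 10824 and 8912. The part of these cells in the values of the calcium handling genes was not tested.

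Beyond the core genes, 10 lists held 123 further genes of calcium handling, of which 109 had a single-symbol cluster and 102 were above the floor. Of the 102, 21 were higher, 44 lower and 37 identical. At least 1.2-fold differences were 5 higher, 4.90% beside 10.5% of all genes, and 18 lower, 17.6% beside 12.9%. At least 2-fold differences were 2 higher, 1.96% beside 3.69% of all genes, and 3 lower, 2.94% beside 2.63%. The 2 higher were the sodium pump subunit Atp1b2 and the small GTPase Rrad, and the 3 lower were the transcription factor Srf, the cation channel Trpc6 and Tcap, which also stands among the cardiomyocyte markers.

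Among voltage-gated calcium channel genes and their regulators, the largest differences were those of Rrad and Cacna2d2. Of 11 voltage-gated calcium channel genes above the floor, 3 were higher, 3 lower and 5 identical, with a median of 0. Rrad, a GTPase that binds the channel beta subunits and restrains the current, read 789 on the vehicle array and 2423 on the LPS array, 3.07-fold higher. The auxiliary subunit gene Cacna2d2 was 1.61-fold higher, at 1810.4 and 2918. The related GTPase genes Gem and Rem1 lay the other way, Gem 1.28-fold lower at 805 and 629.9, and Rem1 1.53-fold lower at 91.7 and 59.98, where both Rem1 values are under 236 and equal once raised to it. The T-type channel gene Cacna1g was 1.13-fold higher and the beta subunit gene Cacnb2 was identical, at 4035.

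Sodium sets the driving force of the exchanger, and the sodium pump showed 1 large difference. Atp1b2, a beta subunit of the pump, read 616 on the vehicle array and 5589 on the LPS array, 9.07-fold higher, a log2 difference of 3.18. The other beta subunit genes Atp1b1 and Atp1b3 were 1.04-fold and 1.03-fold higher, at 0.06 and 0.05, and 0.05 and 0.0048 with the level trend removed. Fxyd1, phospholemman, the cardiac regulator of the pump, was at 0.01, with intensities of 88959 and 89638, and Fxyd5 was 1.60-fold lower. These were the 5 genes of that list with a cluster used here, with a median of 0.05, 4 higher and 1 lower. The alpha subunits and the cardiac sodium channel were not analysed here.

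Regulators of the release channel all lay within 1.5-fold. Of 18 genes above the floor besides Ryr2, Casq2, Trdn and Hrc, 3 were higher, 10 lower and 5 identical, with a median of -0.04, and 1.2-fold was passed upward by 1 and downward by 4, beside 10.5% and 12.9% of all genes. Of the 4 lower, Ryr3, named after its values were seen, read 129.6 and 106.8, both under 236 and equal once raised to it. Pde4d, a phosphodiesterase found in the channel complex, was 1.28-fold higher. Calm3, a calmodulin gene, was 1.26-fold lower, the store-lumen gene Srl 1.25-fold lower and the calcium-binding Sri, sorcin, 1.19-fold lower. Calm2 was 1.22-fold lower in 1 cluster and identical in the other, and calmodulin genes encode the same protein from similar transcripts, so their values are uncertain. Ppp2ca, a phosphatase subunit, was 1.08-fold lower, at 93555 and 86402, and 1.05-fold lower in its other cluster.

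Genes that set phospholamban phosphorylation or otherwise act on the pump differed little. Of 10 above the floor besides Pln and Sln, 2 were higher, 5 lower and 3 identical, with a median of -0.0070. Prkaca, a catalytic subunit of protein kinase A, was 1.21-fold lower, at 26404 and 21895, and the phosphatase gene Ppp1ca was 1.17-fold lower. Ppp1r3a, a phosphatase targeting subunit, was 1.18-fold higher and Prkar1a 1.02-fold lower. Hax1, a phospholamban partner, was 1.12-fold lower in 1 cluster and identical in the other. Other calcium ATPases and exchangers had a median of 0 over 7 genes, with 1 higher, 2 lower and 4 identical. Among them Atp2b4, a plasma membrane calcium pump, was 1.503-fold lower, at 791 and 526, and Atp2b1, another, was 1.12-fold higher. Atp2c1, the Golgi pump, was identical, Atp2b2 was at -0.02 and Atp2b3 was identical, both near the floor. Slc8a2 and Slc8a3 were also identical near the floor, at 53.8 and 62.3, and Atp2a1 and Atp2a3 were below it. The median of 0 therefore rests largely on dim genes.

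Genes of the dyad and T-tubule had a median of 0 over 9 besides Jph2, with 2 higher, 4 lower and 3 identical. Tcap, which links the sarcomere to the T-tubule, was 2.19-fold lower, at 801 and 365, and Myoz2 1.27-fold lower. Jph1, the junctophilin of skeletal muscle, was 1.12-fold lower, at 301 and 269.6, Mtm1 was 1.11-fold higher, and the caveolin gene Cav3 was identical.

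Routes of calcium release and entry outside the core set held both directions. Inositol trisphosphate receptors and store-operated entry genes had a median of 0 over 12, with 2 higher, 4 lower and 6 identical. Trpc6, a receptor-operated cation channel, was 2.31-fold lower, at 769.6 and 334, Trpc1 was 1.16-fold lower, and the log2 difference of Itpr1 was -0.38. Orai2, a store-operated channel subunit, was 1.68-fold higher, at 1018 and 1708, and Stim2, its sensor, was identical. For mitochondrial calcium genes the median was -0.03 over 10, with 1 higher, 5 lower and 4 identical. Mcu, the pore of the uniporter, was 1.39-fold lower, at 1488 and 1068. The exchanger gene Slc8b1 was 1.05-fold higher, Letm1 1.08-fold lower, Vdac1 1.04-fold and Vdac2 1.08-fold lower. Luminal chaperones and buffers had a median of 0 over 9, with 2 higher, 3 lower and 4 identical, and 0 past 1.2-fold in either direction, beside 10.5% and 12.9% of all genes. Calr, calreticulin, and Hsp90b1 were identical, Canx was 1.07-fold higher, and Hspa5 1.13-fold, Rcn2 1.10-fold and Rcn1 1.08-fold lower.

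Transcription factors known to act on cardiac calcium genes were lower in 7 of 11, higher in 1 and identical in 3, with a median of -0.21. Upward, 0 passed 1.2-fold, beside 10.5% of all genes, and downward 4 did, beside 12.9%. Srf, serum response factor, which binds the CArG box, read 4085 on the vehicle array and 1617 on the LPS array, 2.53-fold lower. Mef2c, which binds the MEF2 box, was 1.69-fold lower, at 4853 and 2871, Mef2a 1.24-fold lower and Gata4 1.24-fold lower. The median was -0.09 with low values raised.

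**Figure D4:**
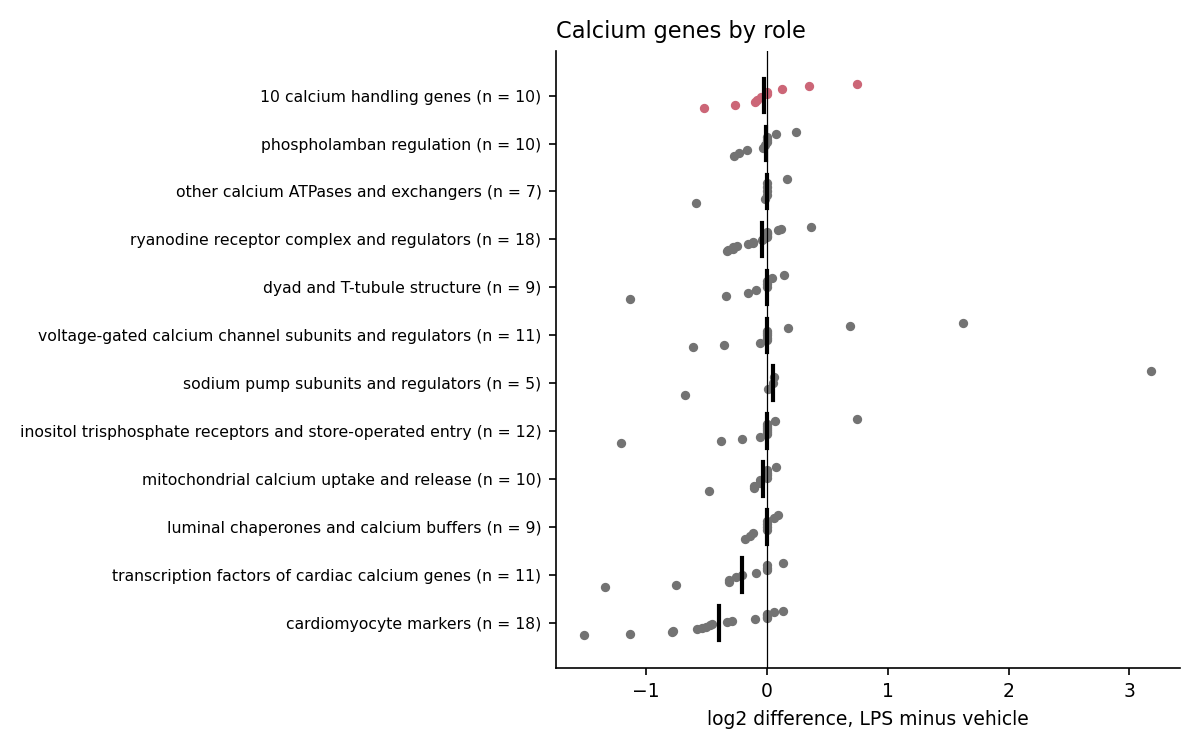
Log2 difference, LPS minus vehicle, of the genes above the floor in the 10 calcium lists and among cardiomyocyte markers, leaving out markers of other cells, with the 10 calcium handling genes in pink, other genes in grey and a black bar at each median. Of the genes drawn, those farthest from 0 are Atp1b2 at 3.18 and Rrad at 1.62, and the medians of transcription factors and cardiomyocyte markers lie at -0.21 and -0.39.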

How the data were processed

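Transcript levels came from 2 Affymetrix whole-transcript arrays, 1 per group. Per the labels' protocols, total RNA was amplified and labelled with biotin by the GeneChip WT PLUS kit. Per the submitters' processing notes, the authors used RMA in Affymetrix Expression Console 1.4.1, which corrects background, equalises the arrays and summarises the probes of a transcript cluster. The values deposited are linear intensities, 1 per cluster and array. The scaling after RMA, the annotation version and the genome build were not given in the sources used here. With 1 array per group the error cannot be estimated, and the number of arrays limits the precision.

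Intensities were converted to log2 without a pseudocount and were not normalized further. Genes were named from the platform table for the 23446 of 68842 clusters with 1 symbol. Symbols were updated by Entrez ID against the RefSeq table of GRCr8, where 22077 clusters matched. The cluster with the highest mean was used for a gene, and each of the 10 calcium handling genes had 1. The floor was the median cluster mean. No test was run, and genes were counted at 1.2-fold, 1.5-fold and 2-fold. The genes named were the 10, and from each list up to 4 that differed most in size and up to 2 of the highest level. No gene was named for a pattern like that of another, since 2 arrays give 1 difference per gene. The calcium handling genes, the lists, the sizes, the settings and the pairs compared as ratios were chosen with earlier results of these data known. The settings varied were centring of the differences, subtraction of a lowess trend on level (span 0.3, 0 robust iterations), the mean over clusters, no floor, a floor at 236, raising low values to 236, other sizes, and the mean of the 10 genes for their median. The calculation was tested on simulated data. Python 3.11.15, pandas 2.3.3, numpy 2.4.6, statsmodels 0.14.6 and matplotlib 3.10.9 were used.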

Additional observations from a re-analysis of the deposited data

How the results depend on the processing

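For the 10 calcium handling genes, the counts of 2 higher and 2 lower at 1.2-fold were the same with the level trend removed. Centring could not change them, as the median difference over all genes was 0. The mean over clusters and no floor could not either, as each gene had 1 cluster and all 10 were above the floor. A floor at 236 and raised low values touched only Sln, which is not among the genes counted. The counts depended on the size, at 1 higher and 0 lower for 1.5-fold and 0 and 0 for 2-fold. The median ran from -0.04 with the level trend removed to -0.0021 with low values raised, and the mean was 0.02, so the set has no settled direction. With the floor at 236, Sln dropped out. Each calcium handling gene moved by under 0.1 log2 under each setting that gave it a value. Apart from Sln, only removal of the level trend moved any of them. Among the other 77 named genes, raising low values moved 5 by more, to 5.22 for Adgre1, -0.59 for C1qb, 0 for Cdh5, 0 for Rem1 and 0.63 for Rgs5, and the mean over clusters moved Calm2 to -0.14. With the floor at 236 the medians of fibroblast, endothelial and macrophage markers were -0.33, -0.49 and -0.40. The log2 ratio of summed marker intensities, chosen after seeing the data, changed sign when 1 gene was left out, from 0.34 to -0.082 for fibroblast markers without Dcn and from 0.24 to -0.22 for macrophage markers without Adgre1. No paired analysis was possible because each group has 1 array, and none could be left out. Dim clusters such as Sln and Rem1 limit what a difference can show.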
